A study of Danio rerio with 24 samples.

Results

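Claudins are membrane proteins that meet across the gap between neighbouring cells and build the strands of the tight junction. Some seal the gap, others form pores for chosen ions, and each epithelium, vessel wall or myelin sheath draws on its own set of them. Fish carry many more claudin genes than mammals. In the zebrafish embryo the first barrier is the enveloping layer, the outer sheet of flat cells that spreads over the yolk. Gut, vessels, myelin, kidney and ear form afterwards, each with claudins of its own.

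The claudin genes were followed in RNA sequencing counts from whole zebrafish (*Danio rerio*) taken as larvae at 96 hours post-fertilisation (hpf) or as embryos at 10 hpf, the close of gastrulation. All animals were of the line Tg(fli1:egfp), which carries a green fluorescent protein under the control of the fli1 promoter, active in blood vessel cells, and all were raised in tetrahydrocannabinol (THC), cannabidiol (CBD) or the solvent dimethyl sulfoxide (DMSO). THC and CBD are plant cannabinoids, the sources used here do not give doses, and DMSO alone is the control. Each of the 6 groups (THC, CBD and DMSO at 96 hpf, and THC, CBD and DMSO at 10 hpf) held 4 libraries, 24 in all. The labels call them biological replicates without saying whether they came from separate clutches, so each p-value covers only the spread among these libraries.

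The members were all identifiers in the count files whose gene symbol begins with cldn in any case, without the cldnd names. The rule gave 38 of 35117 identifiers, and it left out 3 (*cldnd*, *CLDND1* and *cldnd1a*). The symbols mix zebrafish and human style. *CLDN5*, *CLDN10* and *CLDN11* each name 2 identifiers, which are told apart here by their Ensembl numbers. Zebrafish has duplicate copies of many of these genes, and reads of near-identical copies may have been split or dropped in counting.

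The libraries held between 14879976 and 29641377 counts, apart from DMSO library 4 of 10 hpf. It held 125926, which is 153 times below the median of the other 10 hpf libraries. A count of 3, taken as the floor of detection, equals 22.2 CPM (counts scaled to a common library size) in that library and 0.0956 to 0.349 CPM in the others, and floors and counting intervals cover counting error only. Of the 10 hpf libraries, 3 more stood apart. CBD library 3 had a TMM scaling factor of 0.563, against 0.875 to 1.07 in the other 10 hpf libraries. CBD library 1 and DMSO library 1 held 173 and 71 counts of *MYOG*, the muscle regulator myogenin, against at most 1 in the other 10 hpf libraries. Whether these 2 libraries are wholly of their labelled stage is therefore in doubt. Both are kept under their label, and results that move without them are given both ways. *nanog*, a pluripotency gene of early embryos, stood at 10.8 CPM in that CBD library and at 10.16 CPM in that DMSO library. It was similarly low in THC library 4 (11.1 CPM) and CBD library 2 (12 CPM), and reached 76.7 to 219 CPM in the other deep libraries of 10 hpf. Muscle separated the stages: 7 matched skeletal muscle markers summed to 47100 to 69100 CPM at 96 hpf and 9.76 to 1030 CPM at 10 hpf. The 1030 CPM came from the shallow DMSO library 4, and the other 10 hpf libraries reached at most 151 CPM. CBD library 1 and DMSO library 1 stood at 85.1 and 89.3 CPM, below THC libraries 3 and 4 at 151 and 106 CPM. In whole animals, fewer cells of a type and less RNA per cell cannot be told apart.

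Claudins took 0.065 to 0.0904% of all counts in the 96 hpf libraries and 0.0485 to 0.0676% in the 11 deeper 10 hpf libraries. Their TMM-scaled CPM summed to 673 to 888 per library at 96 hpf and to 543 to 863 in the 11 deeper libraries at 10 hpf. Between 34 and 37 claudins had at least 3 counts in a 96 hpf library, and 21 to 30 in a deeper 10 hpf library. The heatmap of all members shows which genes those were.

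**Figure D1:**
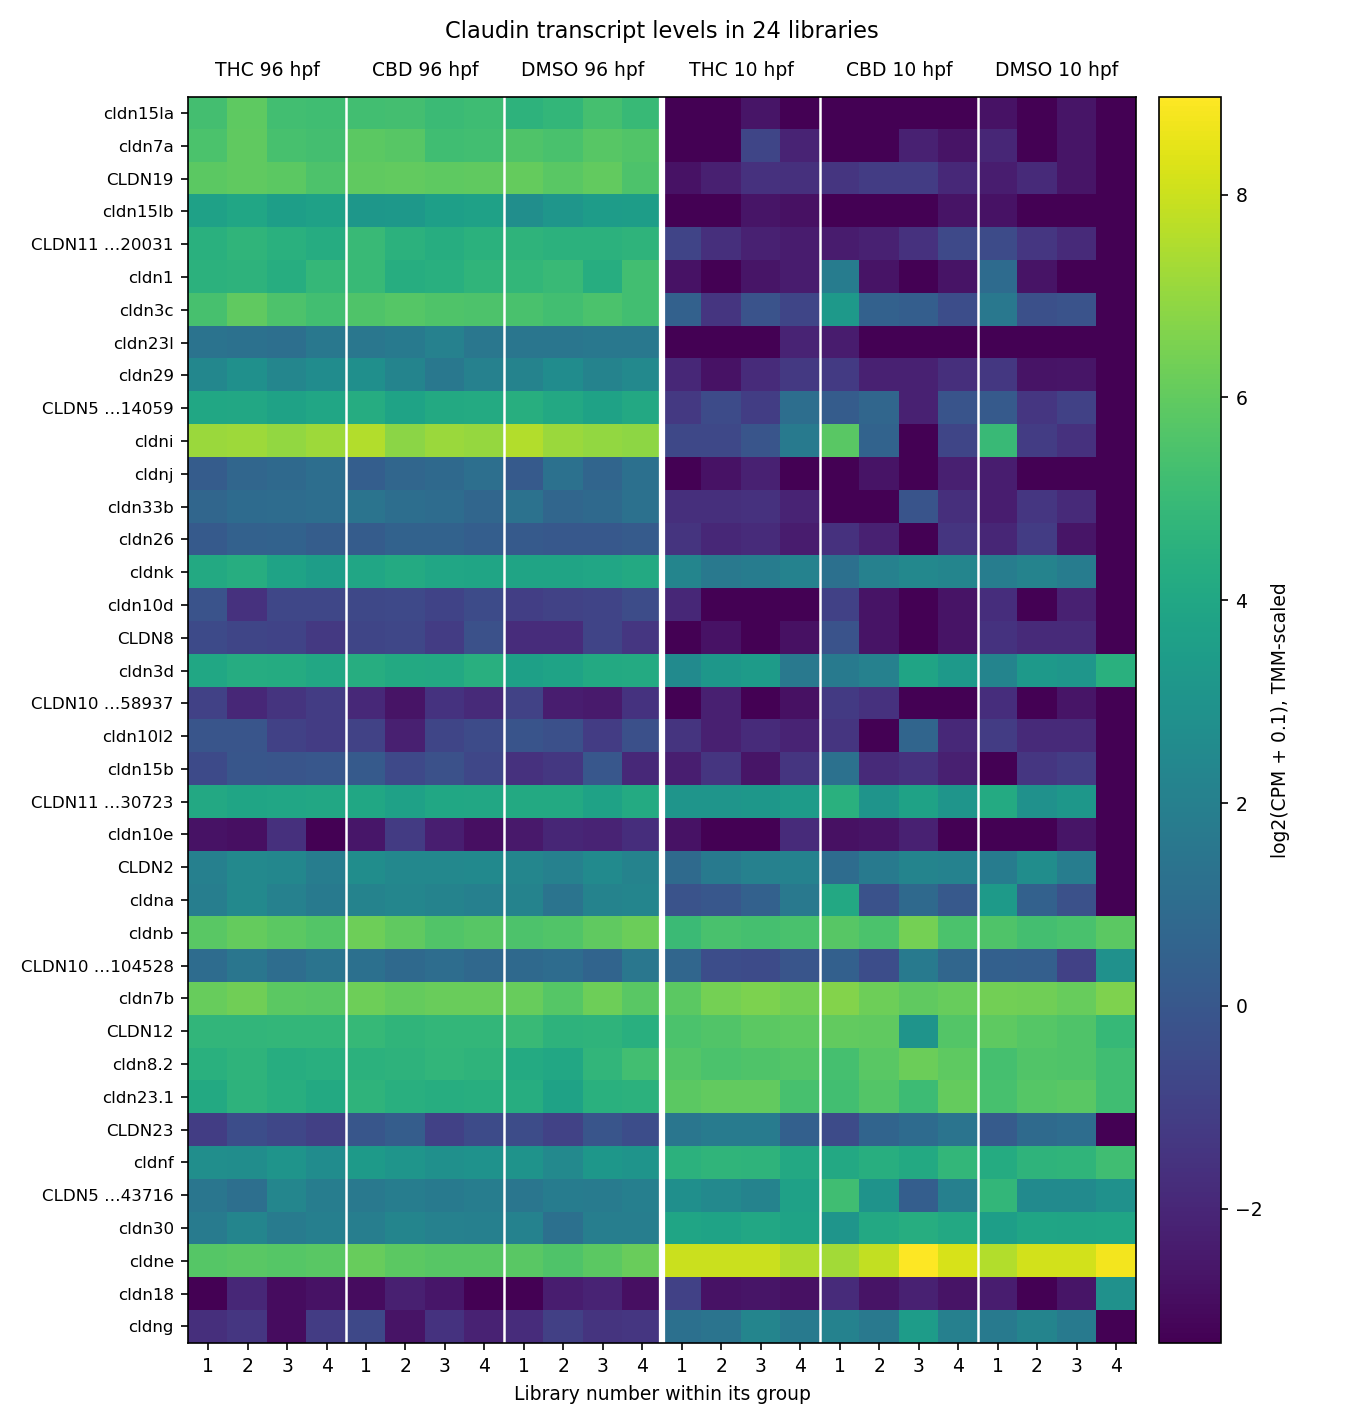
Levels of the 38 claudins, in rows, in the 24 libraries, in columns grouped as THC, CBD and DMSO at 96 hpf and then at 10 hpf. Colour gives log2(CPM + 0.1), rows run from the largest rise at 96 hpf to the largest fall, and identifiers that share a symbol carry the last digits of their Ensembl number. The upper rows are dark at 10 hpf and bright at 96 hpf, *cldne* near the bottom is brightest at 10 hpf, and CBD 1 and DMSO 1 at 10 hpf show larval genes that their neighbours lack.

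The first comparison asks which claudins belong to the larva and which to the embryo, within each treatment. Of the 35 claudins with enough counts to test, 23 were higher and 8 lower at 96 hpf in THC, 18 higher and 8 lower in CBD, and 16 higher and 9 lower in DMSO (edgeR quasi-likelihood test, Benjamini-Hochberg adjusted p under 0.05). Without library 1 of 10 hpf the split was 21 and 7 in CBD and 18 and 8 in DMSO. Most genes differ between these stages. The share called was 88.6% of claudins against 79.9% of all 22741 genes in THC, 74.3% against 78% in CBD, and 71.4% against 77.1% in DMSO. Of all genes, 44.5% were higher and 35.4% lower in THC, 42.4% and 35.6% in CBD, and 42.7% and 34.4% in DMSO. The median log2 fold change was 2.02 for claudins and 0.36 for all genes in THC, 0.97 and 0.25 in CBD, and 0.94 and 0.32 in DMSO. With DESeq2 size factors the median of all genes moved up by 0.82 to 0.86, and the split became 26 higher and 6 lower in THC, 23 and 4 in CBD, and 23 and 4 in DMSO. Of all genes, 56.9% were then higher and 22.8% lower in THC, 54.7% and 22.7% in CBD, and 55% and 21.9% in DMSO, so directions are to be read relative to that shift.

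In all 3 treatments, 16 of the 35 tested claudins were called higher at 96 hpf, against 39% of all genes. Another 7 of the 35 were called lower in all 3, against 31%. All 16 kept their call in all 3 treatments with DESeq2 size factors. Of the 7 lower ones, 4 did (*cldng*, *cldne*, *cldn30* and *cldnf*), while *CLDN23* and *cldn23.1* stayed lower in THC alone and *cldn8.2* in none. The other 12 tested claudins had neither pattern. These larval and embryonic sets were defined by the stage calls themselves, so their sums are a description. The larval set summed to 404 to 519 CPM at 96 hpf and the embryonic set to 85.8 to 145 CPM. At 10 hpf the larval set made up 0.846 to 2.09% of all claudin counts in 9 libraries, 11.5% in CBD library 1, 7.22% in DMSO library 1 and 0 in the shallow DMSO library 4.

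**Figure D2:**
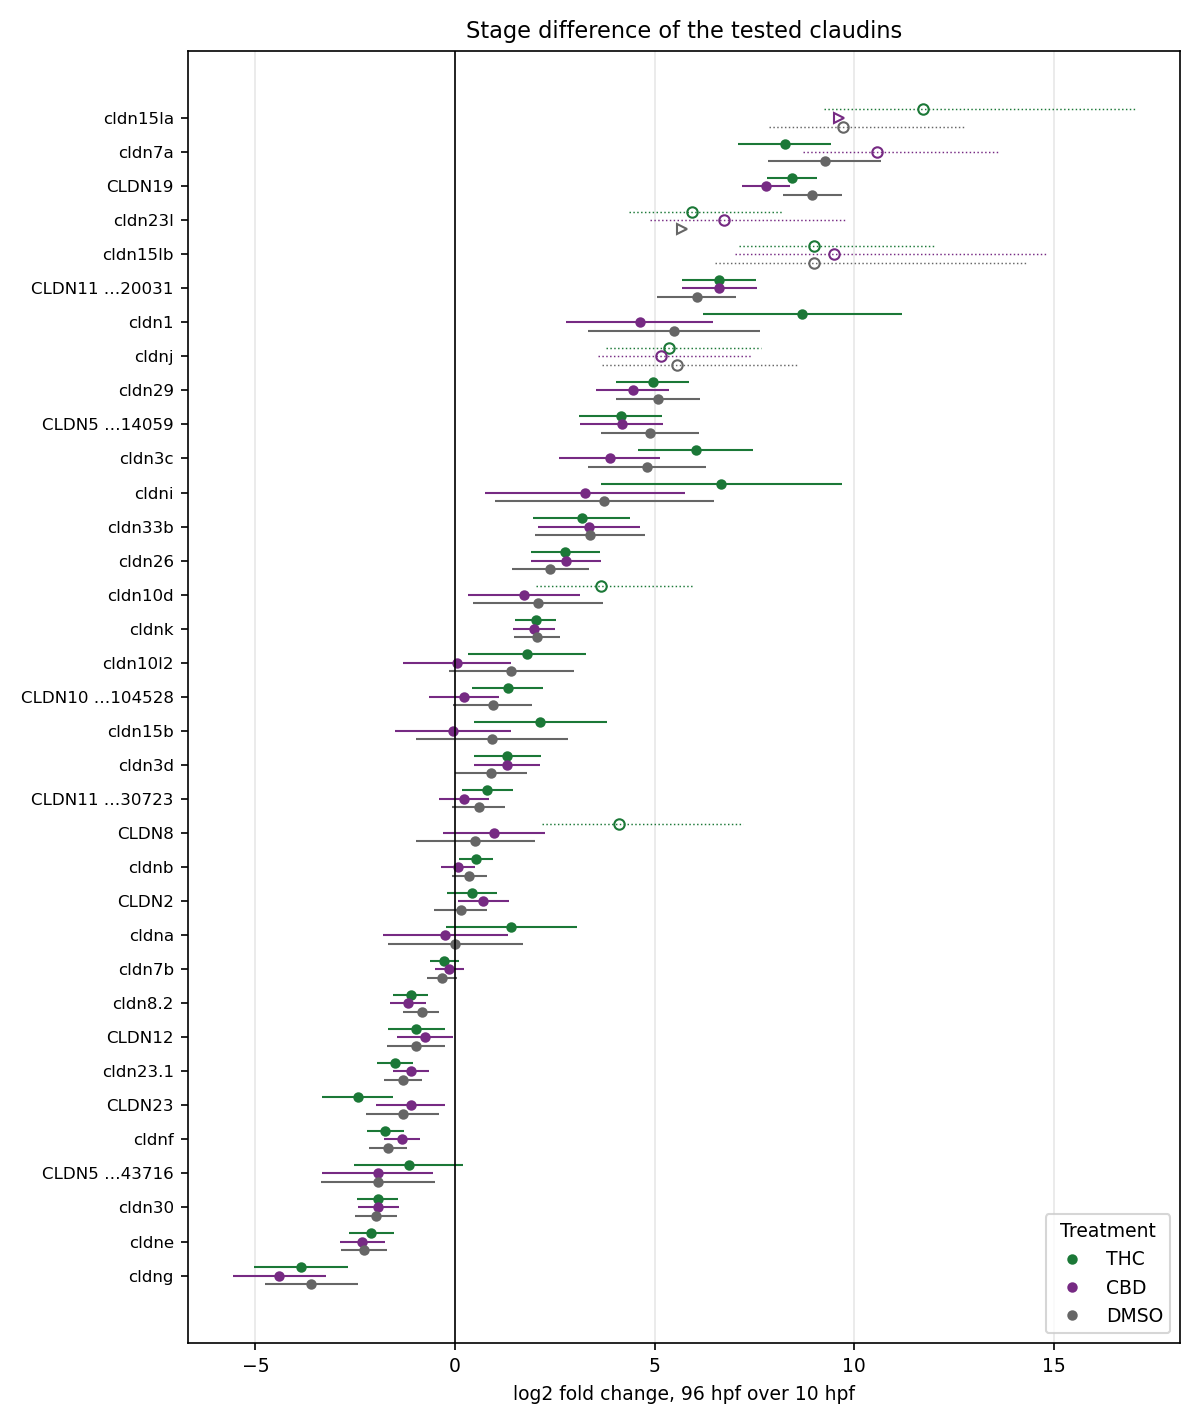
Log2 fold change of 96 hpf over 10 hpf for the 35 tested claudins in THC, CBD and DMSO, filled points with 95% intervals from edgeR. Open points are ratios of pooled CPM with exact counting intervals (dotted) where the 10 hpf counts of a treatment summed to 1 to 3, and triangles are lower bounds where they summed to 0. The 3 treatments lie close together for *cldne*, *cldn30*, *cldnf* and *cldnk*, and far apart for *cldni* and *cldn1*.

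Among the claudins of the outer epithelium, *cldne* was the clearest embryonic gene. It is expressed in the zebrafish enveloping layer. At 96 hpf it measured 52.1, 56.2, 53.2 and 57.2 CPM in THC, 69.4, 57.7, 55.4 and 54.3 CPM in CBD, and 56.3, 47.6, 58.6 and 70.4 CPM in DMSO. At 10 hpf it measured 249, 255, 254 and 183 CPM in THC, 152, 229, 500 and 300 CPM in CBD, and 187, 279, 277 and 430 CPM in DMSO. Every 10 hpf library stood above every 96 hpf library. *cldne* fell by 2.10 on the log2 scale in THC (SE 0.27), by 2.32 in CBD (SE 0.273) and by 2.29 in DMSO (SE 0.277), with adjusted p of 2.73e-07, 7.61e-08 and 1.36e-07. The highest value, 500 CPM in CBD library 3, was 281 CPM before TMM scaling.

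*cldnf*, its neighbour on the chromosome in the RefSeq annotation GRCz12tu, was lower at 96 hpf too. It measured 6.24 to 8.06 CPM in THC, 7.1 to 10.1 CPM in CBD and 5.41 to 9 CPM in DMSO at 96 hpf, and 16.8 to 26.1, 17.2 to 27.6 and 18.7 to 37.1 CPM in the same treatments at 10 hpf. The stages did not overlap in any treatment. The log2 fold changes were -1.75 in THC, -1.34 in CBD and -1.68 in DMSO. *cldna*, next to *cldnf*, and *cldnj*, next to *cldne*, did not share the pattern, so 4 adjacent claudins held an embryonic pair between a larval gene and one with no stable call.

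*cldn30* stood at 3.4, 4.77, 3.31 and 3.83 CPM in THC, 3.68, 4.66, 4.06 and 4.05 CPM in CBD, and 4.3, 2.21, 3.76 and 3.69 CPM in DMSO at 96 hpf. Its 10 hpf values were 14.9, 13.7, 16.2 and 13.9 CPM in THC, 8.39, 16.8, 20.4 and 16.8 CPM in CBD, and 11.8, 14.8, 14.6 and 14.8 CPM in DMSO. The last DMSO value, 14.8 CPM, was 2 counts in the shallow library 4. The lowest 10 hpf library, CBD 1, was still above the highest at 96 hpf. *cldn30* fell by 1.94, 1.92 and 1.98 on the log2 scale in THC, CBD and DMSO (adjusted p of 2.13e-07, 2.6e-07 and 3.6e-07). In the same annotation it closes a row of claudins that opens with the larval gene *cldn3c*.

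*cldng* had the largest fold decline. It measured 0.0319 to 0.531 CPM over the 12 libraries of 96 hpf and 2.22 to 11 CPM over the 11 deeper libraries of 10 hpf, with 0 counts in the shallow one. The ranges were apart in the deeper libraries. The log2 fold changes were -3.86 in THC, -4.40 in CBD and -3.60 in DMSO (SE 0.568, 0.558 and 0.565). Without CBD library 3 of 10 hpf, which held the 11 CPM, the change in CBD was -3.77, and without CBD library 1 of 96 hpf it was -5.11.

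*CLDN23*, *cldn23.1* and *cldn8.2* were the remaining claudins called lower in every treatment. *CLDN23* changed by -2.44 in THC, -1.11 in CBD and -1.31 in DMSO. Its CBD call ended without any 1 of CBD library 4 of 10 hpf (-0.71) or CBD libraries 3 and 4 of 96 hpf (-0.9 and -1.02), and its DMSO call ended without DMSO library 3 of 10 hpf (-1.05). *cldn23.1* changed by -1.50, -1.10 and -1.30 in THC, CBD and DMSO, and *cldn8.2* by -1.11, -1.18 and -0.84. With DESeq2 size factors *cldn8.2* came to -0.24 in THC, -0.35 in CBD and 0 in DMSO, with no call in any of them. *cldn8.2* overlaps another claudin gene in the RefSeq annotation, so part of its reads may have been left out as ambiguous.

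*cldni*, expressed in zebrafish skin, was a larval gene. It measured 137, 143, 125 and 142 CPM in THC, 188, 112, 138 and 128 CPM in CBD, and 185, 139, 126 and 119 CPM in DMSO at 96 hpf. At 10 hpf it measured 0.528, 0.541, 0.848 and 3.3 CPM in THC, 56.2, 1.42, 0 and 0.493 CPM in CBD, and 32.4, 0.347, 0.239 and 0 CPM in DMSO. All 96 hpf libraries were higher than all 10 hpf ones, but CBD 1 and DMSO 1 were far above the rest of their stage. The log2 fold change was 6.67 in THC (SE 1.46), 3.26 in CBD (SE 1.21) and 3.74 in DMSO (SE 1.33). It became 7.61 without CBD library 1, 8.90 without DMSO library 1, and 7.79 in THC without THC library 4.

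*cldn1*, whose mouse counterpart is needed for the water barrier of the epidermis, behaved alike. It measured 19.8 to 29 CPM in THC, 20.1 to 31.5 CPM in CBD and 20.3 to 37.5 CPM in DMSO at 96 hpf. At 10 hpf it was 3.48 CPM in CBD library 1 and 1.85 CPM in DMSO library 1, and at most 0.0905 CPM in the other 10. It rose in all 3 treatments, by 8.70 on the log2 scale in THC, 4.62 in CBD and 5.48 in DMSO. Without CBD library 1 the CBD value was 8.91, and without DMSO library 1 the DMSO value was 9.71, each then resting on very few counts at 10 hpf.

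*cldn3c* belongs to a family that seals junctions in mammals. It stood at 37.7 to 62.7 CPM in THC, 46.2 to 53.6 CPM in CBD and 37.4 to 44.6 CPM in DMSO at 96 hpf, and at 0.27 to 1.32, 0.658 to 9.83 and 0 to 2.9 CPM at 10 hpf in the same treatments. The log2 fold changes were 6.03, 3.87 and 4.80. Without CBD library 1 the CBD value was 5.58, and without DMSO library 1 the DMSO value was 5.8. *cldn7a* shared this direction, at 39.2 to 62.2 CPM in THC, 36.8 to 58.8 CPM in CBD and 43.6 to 55.1 CPM in DMSO at 96 hpf and at most 0.485 CPM in any 10 hpf library. In CBD its counts were 4664 at 96 hpf and 2 at 10 hpf, a ratio of 1530 in CPM (95% exact interval 423 to 12600). In THC they were 4440 and 11, and in DMSO 4557 and 4. The fitted log2 fold changes of *cldn7a* were 8.26 in THC, 10.3 in CBD and 9.26 in DMSO. They were 9.74 without THC library 3, 11.02 without CBD library 3 and 10.43 without DMSO library 1, all of 10 hpf.

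Their paralogs *cldn7b* and *cldn3d* were already present in the embryo. *cldn7b* measured 57 to 77.8 CPM in THC, 67 to 75.6 CPM in CBD and 53.7 to 76 CPM in DMSO at 96 hpf, and 58.1 to 94.6, 63.2 to 104 and 69.2 to 96.4 CPM in those treatments at 10 hpf. The stages overlapped, and the log2 fold changes of -0.28, -0.14 and -0.32 did not pass the test. With DESeq2 size factors they turned to 0.59, 0.69 and 0.50, all called higher. *cldn3d* measured 16.1 to 19.5 CPM in THC, 17.2 to 21.6 CPM in CBD and 12.4 to 18 CPM in DMSO at 96 hpf, and 3.08 to 10.7, 3.11 to 14.6 and 4.55 to 22.2 CPM at 10 hpf. The 22.2 CPM was 3 counts in the shallow DMSO library 4. In the deeper libraries the stages did not overlap within any treatment. *cldn3d* rose by 1.31 in THC and by 1.30 in CBD, and its DMSO value of 0.90 did not pass (adjusted p = 0.0642). It passed in DMSO without library 2 (1.14) or 4 (1.05) of 10 hpf or library 2 of 96 hpf (1.04). *cldnb* is expressed in the migrating lateral line primordium of zebrafish, and its stages overlapped. It measured 46.8 to 76.4 CPM over the 12 larval libraries and 33.5 to 84.5 CPM over the 12 embryonic ones. Its log2 fold change was 0.53 in THC, which passed (adjusted p = 0.0215, lost without THC library 1 of 10 hpf at 0.49 or THC library 2 of 96 hpf at 0.47), 0.08 in CBD and 0.36 in DMSO. Scaled by DESeq2 size factors, *cldnb* was called higher in all 3 treatments (1.39, 0.89 and 1.19), and *cldn3d* likewise (2.18, 2.11 and 1.75). Without CBD library 3 of 10 hpf, *cldnb* passed in CBD at 0.41, and without DMSO library 2 of 96 hpf it passed in DMSO at 0.57. The 13 matched markers of epidermis and enveloping layer summed to 14500 to 21800 CPM at 96 hpf and 15100 to 32800 CPM at 10 hpf, and their part in these results was not tested.

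**Figure D3:**
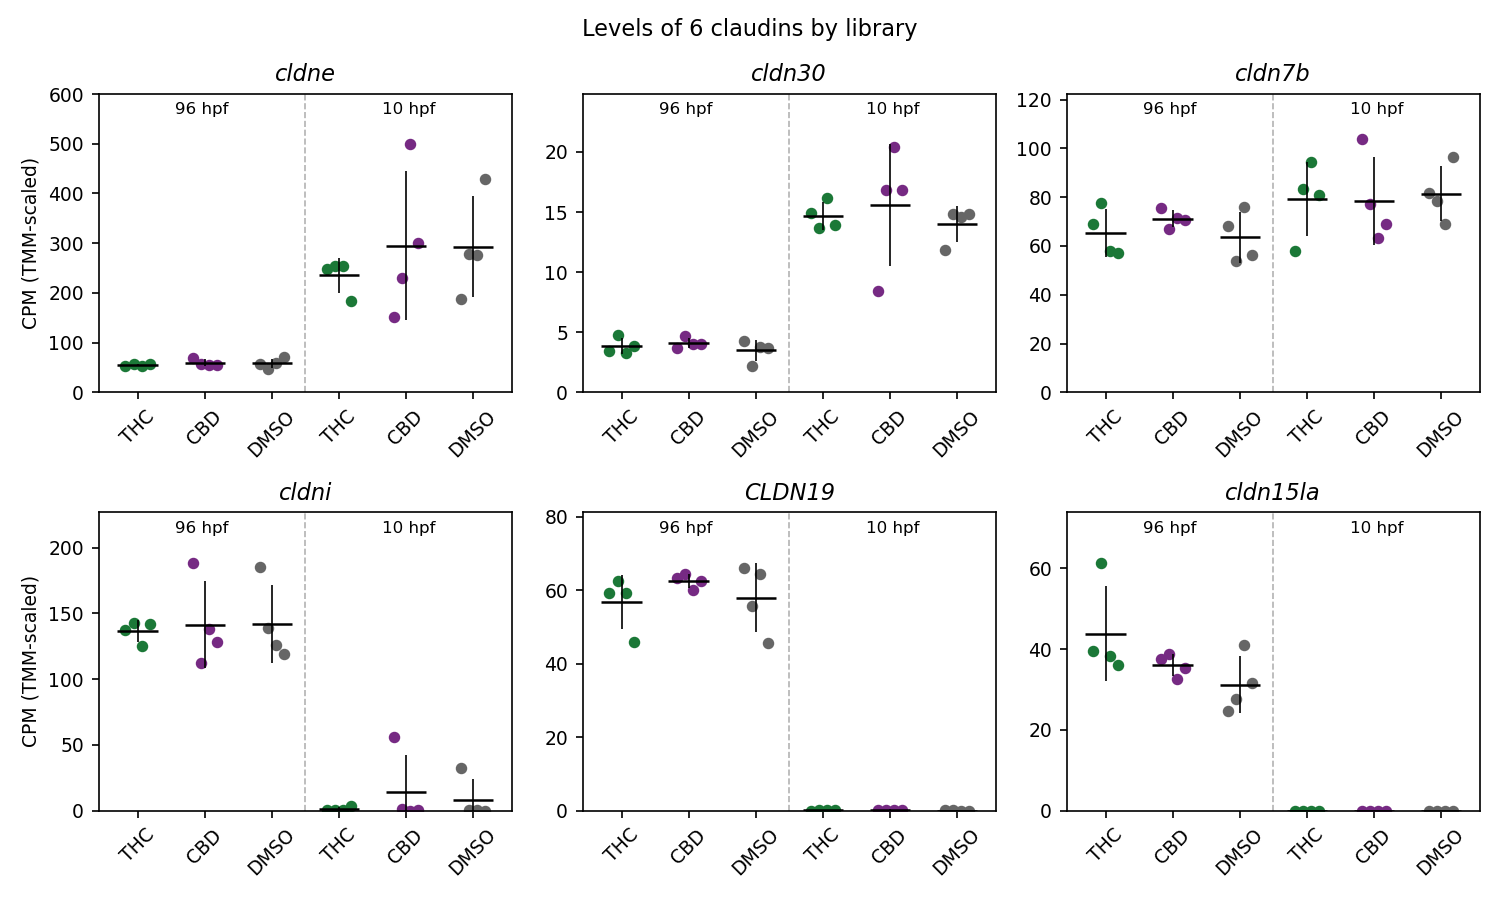
CPM of *cldne*, *cldn30*, *cldn7b*, *cldni*, *CLDN19* and *cldn15la* in each library, for THC, CBD and DMSO at 96 hpf (left of the dashed line) and at 10 hpf (right). Points are libraries, horizontal lines the mean and vertical lines 1 SD of 4 libraries. *cldne* and *cldn30* were higher at 10 hpf in every library, *cldn7b* overlapped, and *cldni*, *CLDN19* and *cldn15la* were higher at 96 hpf in every library.

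Of the 4 gut and liver claudins, *cldn15la* and *cldn15lb* were nearly absent from the embryo and present in the larva. *cldn15la*, a marker of the zebrafish intestine, measured 39.6, 61.2, 38.4 and 36.1 CPM in THC, 37.5, 38.8, 32.7 and 35.4 CPM in CBD, and 24.7, 27.6, 41.1 and 31.5 CPM in DMSO at 96 hpf. Its counts over 4 libraries were 4172 in THC, 3577 in CBD and 2901 in DMSO at 96 hpf, and 1, 0 and 2 in those treatments at 10 hpf. That is a ratio of 3360 in THC (95% exact interval 602 to 133000), at least 781-fold in CBD against a floor of 3 counts over the group, and 843 in DMSO (233 to 6970). *cldn15lb*, expressed in zebrafish liver, had 1255, 1096 and 874 counts in THC, CBD and DMSO at 96 hpf and 2, 1 and 1 at 10 hpf, with a ratio of 508 in DMSO (91 to 20100). Both passed the test in all 3 treatments. The DMSO count of *cldn15lb* at 10 hpf was in library 1, and its fitted log2 fold change was 10.57 without that library, against 8.58 with it. In CBD the fitted value was 10.81 without library 4 of 10 hpf, against 9 with it. *cldn15b* was low at 96 hpf, between 0.164 and 1.03 CPM, and passed only in THC, by 2.13. It reached 2.27 CPM in CBD library 1 of 10 hpf, and without that library its CBD value passed at 2.10, against -0.06 with it.

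The 8 intestine markers summed to 524 to 1160 CPM at 96 hpf and 119 to 838 CPM at 10 hpf, and the 7 liver markers to 3310 to 5400 and 430 to 1830 CPM. By mean, both sums were higher at 96 hpf in every treatment, as *cldn15la* and *cldn15lb* were, though by less. The intestine sums overlapped between stages in CBD and DMSO, with 838 CPM in CBD library 1 and 546 CPM in DMSO library 1 of 10 hpf. *FABP2*, of the intestine list, went from a mean of 332 CPM at 10 hpf to 191 at 96 hpf in CBD. It went from 175 to 154 CPM in DMSO and from 142 to 260 CPM in THC. The DMSO mean at 10 hpf rested on library 1 at 425.6 CPM. The other DMSO libraries of 10 hpf held 81.57 to 97.85 CPM, below the 103 to 202 CPM of DMSO at 96 hpf. In CBD at 10 hpf, library 1 held 661.6 CPM and the others 117.6 to 336.9 CPM, against 162 to 224 CPM at 96 hpf. The part of these markers in the stage difference was not tested. *cldn18*, a stomach and lung claudin in mammals, did not have enough counts to be tested. It had 1 count in the shallow DMSO library, which is 7.42 CPM there, and 0 to 0.422 CPM in the other 23.

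The 2 identifiers named *CLDN5*, the claudin of the vessel wall and blood-brain barrier in mammals, differed in direction. *CLDN5* ENSDARG00000014059 measured 15.9, 16.6, 13.3 and 15.6 CPM in THC, 19.2, 13.8, 17.7 and 17.9 CPM in CBD, and 20.5, 17.1, 13.5 and 16.9 CPM in DMSO at 96 hpf, against at most 2.08 CPM in any 10 hpf library. It rose by 4.15, 4.17 and 4.87 on the log2 scale in THC, CBD and DMSO. Without THC library 4 of 10 hpf the THC value was 5.21, and without DMSO library 1 the DMSO value was 5.58. The 9 matched endothelial markers were higher at 96 hpf as well, at 211 to 315 CPM against 18.4 to 74.2 CPM at 10 hpf, and their part was not tested.

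*CLDN5* ENSDARG00000043716 leaned to the embryo without belonging to the embryonic set, and that rested on few libraries. It stood at 2.76, 2.14, 4.87 and 3.63 CPM in THC, 2.99, 3.54, 3.11 and 3.58 CPM in CBD, and 2.78, 3.49, 3.41 and 3.81 CPM in DMSO at 96 hpf. At 10 hpf it measured 6.86, 5.35, 4.48 and 13.2 CPM in THC, 37.2, 7.85, 1.16 and 4 CPM in CBD, and 28.2, 5.79, 5.73 and 7.42 CPM in DMSO. The 7.42 CPM in DMSO was 1 count in the shallow library 4. CBD 1 and DMSO 1 were again the highest. The log2 fold change was -1.15 in THC (adjusted p = 0.111), -1.94 in CBD (adjusted p = 0.0115) and -1.93 in DMSO (adjusted p = 0.0148). It was -0.43 without CBD library 1 (adjusted p = 0.459) and -0.79 without DMSO library 1 (adjusted p = 0.31). With DESeq2 size factors it came to -0.29 in THC, -1.12 in CBD and -1.13 in DMSO, with no call in any of them.

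Of 5 claudins of myelin and nervous system, 4 were called higher and 1 lower at 96 hpf in THC, 3 and 0 in CBD, and 3 and 1 in DMSO, where 79.9%, 78% and 77.1% of all genes were called in either direction. *cldnk*, the claudin of myelinating glia in zebrafish, measured 17.7, 19.8, 13.8 and 11.3 CPM in THC, 15.6, 18, 15.2 and 15 CPM in CBD, and 14.6, 14.6, 15.3 and 17.8 CPM in DMSO at 96 hpf. At 10 hpf it measured 4.7, 3.03, 3.51 and 4.21 CPM in THC, 2.22, 4.19, 5.23 and 4.71 CPM in CBD, and 3.65, 4.46, 3.46 and 0 CPM in DMSO. The stages did not overlap, and the 0 is the shallow library. *cldnk* rose by 2.02, 1.97 and 2.04 on the log2 scale in THC, CBD and DMSO. *mbpa*, a myelin gene, was at 24.8 to 54.2 CPM at 96 hpf and at 0 to 0.182 CPM at 10 hpf.

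*CLDN19*, a claudin of Schwann cells and of kidney in mammals, was nearly absent from the embryo. It measured 59.3, 62.6, 59.1 and 46 CPM in THC, 63.4, 64.3, 60 and 62.5 CPM in CBD, and 66.1, 55.7, 64.3 and 45.7 CPM in DMSO at 96 hpf, against 0 to 0.354 CPM in the 12 libraries of 10 hpf. The log2 fold changes were 8.44 in THC (SE 0.301), 7.78 in CBD (SE 0.29) and 8.95 in DMSO (SE 0.354).

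The 2 identifiers of *CLDN11*, a claudin of myelin and testis in mammals, were also unlike. *CLDN11* ENSDARG00000020031 measured 19.2 to 32.3 CPM at 96 hpf and 0 to 0.6 CPM at 10 hpf, and rose by 6.61, 6.62 and 6.06 in THC, CBD and DMSO on the log2 scale. Those values reached 7.30 without THC library 1, 7.56 without CBD library 4 and 6.68 without DMSO library 1, all of 10 hpf. *CLDN11* ENSDARG00000030723 was expressed at both stages, at 13.1 to 18.1 CPM at 96 hpf and 0 to 22 CPM at 10 hpf. The 0 was in the shallow DMSO library 4, and the other 10 hpf libraries held at least 7.23 CPM. This identifier passed in THC by 0.81 and not in CBD (0.23) or DMSO (0.60). It was called higher in all of them with DESeq2 size factors, at 1.67, 1.04 and 1.41. Its 10 hpf values were 22 CPM in CBD library 1 and 18.2 CPM in DMSO library 1. Without CBD library 1 it passed in CBD at 0.62, and without DMSO library 1 it passed in DMSO at 1.1.

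*CLDN12*, a claudin of brain and gut in mammals, leaned to the embryo. It measured 21.6 to 32 CPM over the 96 hpf libraries and 29.7 to 64.4 CPM over 11 libraries of 10 hpf, with 8.13 CPM in CBD library 3. The 29.7 CPM was 4 counts in the shallow DMSO library 4. *CLDN12* fell by 0.97 in THC and by 0.97 in DMSO, and its change in CBD was -0.75 (adjusted p = 0.0504). Without CBD library 3 the CBD change passed at -1.01. The DMSO call ended without DMSO libraries 2 (-0.82) or 3 (-0.87) of 10 hpf or DMSO library 2 of 96 hpf (-0.82), and the THC call without THC library 4 of 10 hpf (-0.85). With DESeq2 size factors no treatment passed, at -0.10 in THC, 0.11 in CBD and -0.16 in DMSO. The 6 myelin and glia markers summed to 149 to 223 CPM at 96 hpf and 59.5 to 108 CPM at 10 hpf, and their part in the rises of this group was not tested.

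Of 8 kidney and ion-transport claudins, 6 had enough counts to be tested, and 4 were called higher and 1 lower in THC, 2 and 1 in CBD, and 1 and 1 in DMSO. Of all genes, 79.9%, 78% and 77.1% were called in those treatments. *CLDN2*, which forms cation pores in mammalian kidney and gut, measured 3.63 to 6.5 CPM at 96 hpf and 1.79 to 6.36 CPM at 10 hpf in the deeper libraries, and the stages overlapped. Its log2 fold change was 0.42 in THC, 0.71 in CBD (adjusted p = 0.0377) and 0.14 in DMSO. The CBD call ended without CBD library 1 (0.51) or 2 (0.72) of 10 hpf, and without CBD library 1 (0.64) or 4 (0.71) of 96 hpf. With DESeq2 size factors all 3 treatments were called higher, at 1.29, 1.54 and 0.98.

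*cldn10d*, of the family of paracellular ion pores, was called higher in all 3 treatments at no more than 0.796 CPM in any library. It had 47 counts in THC at 96 hpf and 3 at 10 hpf, a ratio of 12.6 (95% exact interval 4.06 to 63.3). It rose by 1.73 in CBD and by 2.08 in DMSO on the log2 scale. The CBD call ended without library 2 (1.53) or 4 (1.51) of 10 hpf and reached 3.40 without library 1, and in DMSO it ended without library 2 (1.59) and reached 2.92 without library 1. *CLDN10* ENSDARG00000104528, *cldn10l2* and *CLDN8* passed in THC and not in CBD or DMSO. Scaled by DESeq2 size factors, *CLDN10* ENSDARG00000104528 was called higher in all 3 treatments (2.18 in THC, 1.03 in CBD and 1.76 in DMSO), *cldn10l2* in THC (2.64) and DMSO (2.21), and *CLDN8* in THC (4.59) and CBD (1.78). *CLDN10* ENSDARG00000104528 passed at 1.32 in THC, against 0.23 in CBD and 0.94 in DMSO, and the DMSO value passed at 1.07 without the shallow library 4. *cldn10l2* passed at 1.80 in THC, a call lost without THC library 2 of 10 hpf (1.67), or THC libraries 1 (1.63) or 2 (1.61) of 96 hpf. Without CBD library 3 of 10 hpf it passed in CBD at 1.48, against 0.05 with it. *cldn10l2* overlaps another claudin gene in the RefSeq annotation, so part of its reads may have been left out as ambiguous. *CLDN8* had 43 counts in THC at 96 hpf and 2 at 10 hpf, and without CBD library 1 of 10 hpf it passed in CBD at 3.36, against 0.97 with it. None of these differences between treatments passed the interaction test described at the end. *CLDN10* ENSDARG00000058937 and *cldn10e* did not have enough counts to be tested, with at most 0.43 CPM in any library. The 9 kidney markers summed to 399 to 564 CPM at 96 hpf and 172 to 439 CPM at 10 hpf, and the 5 ionocyte markers to 137 to 181 and 0 to 36.4 CPM. Their part was not tested.

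*cldnj*, which zebrafish need for otoliths and hearing, was a larval gene. It measured 1.02 to 2.31 CPM over the 96 hpf libraries and 0 to 0.121 CPM over the 10 hpf ones. Its counts were 153, 163 and 162 in THC, CBD and DMSO at 96 hpf and 3, 3 and 2 at 10 hpf, ratios of 41 (13.8 to 201), 35.6 (12 to 174) and 47.1 (12.8 to 392). Both DMSO counts were in library 1, and the fitted log2 fold change was 8.16 without it, against 5.38 with it. It was 6.16 without THC library 3, against 5.12, and 5.97 without CBD library 4, against 5. The 5 genes listed as otic vesicle markers ran the other way, with 143 to 287 CPM at 96 hpf and 415 to 1390 CPM at 10 hpf. In whole animals such a sum does not show which tissue held the transcripts, so it is not a measure of ear tissue. Its part was not tested.

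Of the claudins with no listed role, *cldn26*, *cldn29* and *cldn33b* rose in all 3 treatments, while *cldn30* and *cldn23.1* fell. *cldn29* measured 2.94 to 6.99 CPM at 96 hpf and 0 to 0.324 CPM at 10 hpf, and rose by 4.95, 4.45 and 5.08 in THC, CBD and DMSO, or 6.31 in DMSO without library 1 of 10 hpf. *cldn33b* measured 1.54 to 2.55 CPM at 96 hpf and 0 to 0.813 CPM at 10 hpf, with changes of 3.18, 3.36 and 3.38, or 4.80 in CBD without library 3 of 10 hpf. *cldn26* was between 0.935 and 1.37 CPM at 96 hpf and at most 0.347 CPM at 10 hpf, with changes of 2.76, 2.78 and 2.39, or 3.18 in DMSO without library 2 of 10 hpf. *cldn23l*, low as well, had 227, 327 and 265 counts in THC, CBD and DMSO at 96 hpf and 3, 2 and 0 at 10 hpf, and was at least 51.4-fold higher in DMSO. *cldna* was the remaining skin member, at 2.51 to 5.45 CPM at 96 hpf and 0 to 17.1 CPM at 10 hpf, with log2 fold changes of 1.41, -0.24 and 0.01 that did not pass. Its 0 CPM was in the shallow DMSO library 4, and the other 10 hpf libraries held at least 0.717 CPM. *cldna* passed without THC library 4 (2.07), CBD library 1 (1.99) or DMSO library 1 (1.99) of 10 hpf.

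Other junction genes were counted in the same way, from lists of their own. In DMSO, 1 of 10 occludin and tricellular genes was higher and 4 were lower at 96 hpf, and 3 and 5 of 10 scaffold genes. The split was 2 and 8 of 15 polarity genes, and 1 and 10 of 15 adherens junction and desmosome genes. Of 19 genes listed as transcription factors of epithelial genes, 2 were higher and 13 lower. Of all genes, 42.7% were higher and 34.4% lower. *MARVELD2*, the tricellulin of corners where cells meet, changed by -2.29 (SE 0.298), *oclnb*, an occludin, by -1.16 (SE 0.202), and *cgnb*, a cingulin of the junction's inner face, by -2.41 (SE 0.319). The polarity genes *PARD3* and *PRKCI* fell by 2.40 and by 1.24. In the transcription factor list the smallest p belonged to *cdx4* (-9.6), *klf17* (-4.1) and *zeb1a* (-6.32). That list also holds *snai1a*, *snai2* and *ZEB2*, so its falls do not stand for activators of epithelial genes alone.

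Of 10 junctional adhesion molecules, 7 were higher and 2 lower. *ESAM*, of vessel walls, changed by 5.99 (SE 0.738), *f11r.2* by 3.92 (SE 0.541) and *f11r.1* by -2 (SE 0.208). With DESeq2 size factors the split was 4 higher and 1 lower for the occludin list, 3 and 1 for scaffolds, 7 and 1 for adhesion molecules, 3 and 2 for polarity, 3 and 9 for the transcription factors, and 3 and 7 for adherens junctions and desmosomes, against 55% and 21.9% of all genes. The balance of the occludin, scaffold and polarity lists thus turned with the scaling.

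The common coefficient of biological variation between libraries of a treatment was 0.195 at 96 hpf and 0.476 at 10 hpf. CBD 1 and DMSO 1 stood together above the others for several claudins.

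**Figure D4:**
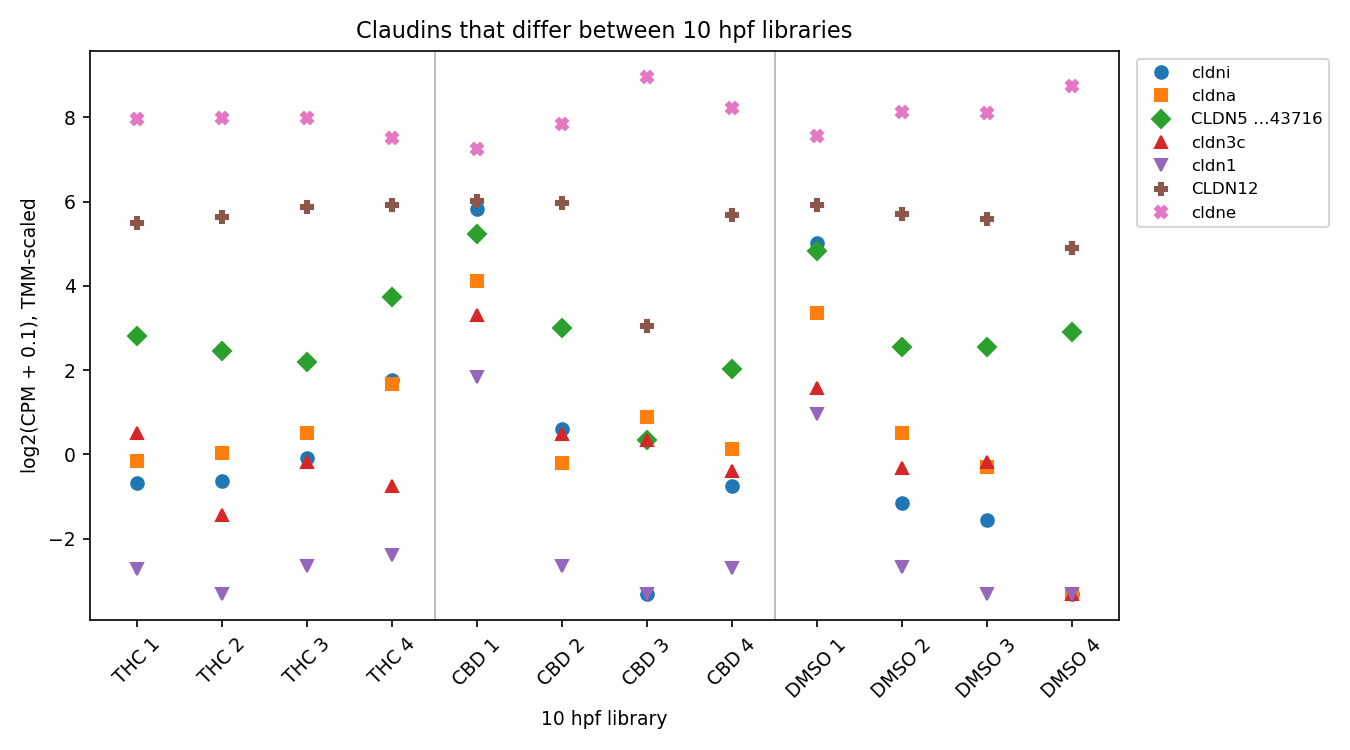
Log2(CPM + 0.1) of 7 claudins in each 10 hpf library, with THC left, CBD in the middle and DMSO right. *cldni*, *cldna*, *CLDN5* ENSDARG00000043716, *cldn3c* and *cldn1* are highest in CBD 1 and DMSO 1, *CLDN12* is lowest in CBD 3 at 8.13 CPM, and zeros of the shallow DMSO 4 lie at the bottom.

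The second comparison asks what THC and CBD did to the claudins at 10 hpf. None of the 20 claudins with enough counts passed with edgeR, whether THC or CBD was set against DMSO or CBD against THC, and neither did any other gene (0% of 17595 in each). DESeq2 and limma voom also called 0 claudins. At an unadjusted p under 0.05 there were 0, 0 and 2 claudins in these comparisons, against 0.278%, 5.41% and 9.1% of all genes. Precision was limited: the 95% interval lay within a 2-fold change either way for 7, 8 and 7 of the 20.

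By smallest p, the claudins of THC against DMSO at 10 hpf were *cldni* (log2 fold change -2.95, 95% interval -6.84 to 0.93), *CLDN23* (0.75, -0.38 to 1.87) and *cldna* (-1.35, -3.69 to 1), each with an adjusted p of 1. *cldni* and *cldna* changed sign without DMSO library 1, to 2.14 and 0.61. *CLDN23* measured 2.74, 3.41, 3.33 and 1.27 CPM in THC and 1.05, 1.79, 2.03 and 0 CPM in DMSO, and the groups overlapped.

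In CBD against DMSO at 10 hpf the 3 smallest p belonged to *cldn8.2* (0.35, 95% interval -0.10 to 0.80), *cldng* (0.71, -0.36 to 1.78) and *cldn3c* (1.2, -0.75 to 3.14), with adjusted p of 0.822 to 0.838. *cldn8.2* measured 39.9, 55.7, 73 and 60.2 CPM in CBD and 40.2, 49.1, 48.5 and 37.1 CPM in DMSO, with overlap. *cldn3c* turned to -0.47 without CBD library 1.

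In CBD against THC at 10 hpf, *cldn3c* (2.20, 95% interval 0.33 to 4.07, adjusted p = 0.542), *cldnb* (0.53, 0.01 to 1.05, adjusted p = 0.542) and *cldni* (3.48, -0.41 to 7.37, adjusted p = 0.545) came first. *cldni* turned to -0.95 without CBD library 1. *cldnb* measured 55.1, 44.2, 84.5 and 45.1 CPM in CBD and 33.5, 43.5, 40.2 and 43.7 CPM in THC. The groups came as near as 44.2 and 43.7 CPM after TMM scaling. The scaling factors were 0.563 to 1.05 in CBD and 0.937 to 0.975 in THC. *cldnb* was picked for its small p, so this narrow separation adds no support.

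At 96 hpf none of 34 tested claudins passed with edgeR. Of all 21409 genes, 0.0514% passed between THC and DMSO, 0% between CBD and DMSO and 0% between CBD and THC. DESeq2 and limma voom also called 0 claudins. At an unadjusted p under 0.05 there were 3, 2 and 1 claudins in that order, against 3.75%, 1.92% and 2.52% of all genes. The 95% interval lay within a 2-fold change either way for 31 of the 34 in each comparison. The exceptions were *CLDN8*, *cldn15b* and *CLDN23* in THC against DMSO, *CLDN8*, *cldn15b* and *cldn10l2* in CBD against DMSO, and *cldn15b*, *CLDN23* and *cldn10l2* in CBD against THC.

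The smallest p in THC larvae belonged to the 3 tested gut and liver claudins. *cldn15lb* measured 13.1, 15.5, 11.9 and 12.9 CPM in THC and 6.53, 8.81, 11.1 and 11.2 CPM in DMSO. The gene was picked for its small p, so the lack of overlap between these values adds no support. The log2 fold change was 0.52 (SE 0.181, unadjusted p = 0.0117 and adjusted p = 1 with edgeR). *cldn15la*, given above, overlapped between THC and DMSO, with a fold change of 0.51 (SE 0.186, adjusted p = 1), and its THC mean of 43.8 CPM was 38 CPM without library 2. *cldn15b* measured 0.584, 0.889, 0.86 and 0.92 CPM in THC and 0.235, 0.295, 0.918 and 0.164 CPM in DMSO, a difference of 1.03 (SE 0.459, adjusted p = 1) with overlap through DMSO library 3.

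CBD larvae lay between THC and DMSO for these genes, with differences from DMSO of 0.24 for *cldn15lb*, 0.23 for *cldn15la* and 0.85 for *cldn15b*. THC and CBD share the DMSO libraries, so these values are not independent of the THC ones. The intestine markers summed to 715 to 1160 CPM in THC, 664 to 814 CPM in CBD and 524 to 828 CPM in DMSO larvae. The liver markers summed to 4300 to 5370 CPM in THC, 3590 to 4340 CPM in CBD and 3310 to 5400 CPM in DMSO larvae, with CBD lowest by mean (3830 CPM, against 5010 in THC and 4420 in DMSO). The part of either list was not tested. *FABP2*, an intestinal fatty acid binding protein, measured 242, 422, 188 and 189 CPM in THC and 103, 142, 202 and 170 CPM in DMSO. It measured 224, 162.5, 185 and 191 CPM in CBD larvae, and the groups overlapped. At 10 hpf it was already at 81.6 to 662 CPM, so it is not a marker of larvae alone. This gene was picked after its values were seen.

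In CBD larvae the smallest p belonged to *cldn3d*, *CLDN8* and *cldn3c*. *cldn3d* measured 20, 17.7, 17.2 and 21.6 CPM in CBD and 12.4, 13.9, 17.7 and 18 CPM in DMSO. The groups overlapped, with a log2 fold change of 0.33 (SE 0.138, adjusted p = 1). *CLDN8* differed by 0.84 (SE 0.379, adjusted p = 1) at 0.35 to 0.733 CPM in CBD and 0.196 to 0.481 CPM in DMSO, and *cldn3c* by 0.28 (SE 0.144, adjusted p = 1).

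CBD and THC are related compounds, so they were also set against each other at 96 hpf. *cldn23l* measured 2.85, 3.15, 4.19 and 2.8 CPM in CBD and 2.44, 2.3, 2.13 and 2.91 CPM in THC. The groups overlapped, with a log2 difference of 0.41 (95% interval 0.02 to 0.80, adjusted p = 1). *CLDN2* differed by 0.32 (-0.05 to 0.69) and *CLDN23* by 0.59 (-0.16 to 1.35), both with an adjusted p of 1. For *cldne* the differences from DMSO were -0.07 (-0.32 to 0.19) in THC and 0.05 (-0.21 to 0.31) in CBD.

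Finally, the treatment effects were tested for a difference between stages. None of the 35 claudins passed in any of the 3 interaction contrasts with edgeR, against 0% of 22741 genes in each, and DESeq2 and limma voom called 0 claudins. At an unadjusted p under 0.05 there was 1 claudin for THC and DMSO (2.37% of all genes), 0 for CBD and DMSO (6.7%) and 4 for CBD and THC (10.8%). *CLDN8* had the smallest p for THC against DMSO (0.00917, adjusted p = 1), and *cldn1* for CBD against THC (0.0136, adjusted p = 0.426). The *cldn1* estimate of -4.08 turned to 0.21 without CBD library 1 of 10 hpf. *CLDN19* (-1.17) and *cldn15la* had the smallest p for CBD against DMSO, with an adjusted p of 0.715 for each.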

How the data were processed

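RNA was purified with the RNeasy kit and DNase, prepared with TruSeq and read from both ends on a HiSeq instrument, per the labels' protocols. The deposited values are raw read counts per Ensembl gene, 1 file per library, with 0 rows that name no gene. Per the submitters' processing notes, STAR, HTSeq, edgeR and the build GRCz11 were used; the sources used here give no versions. The names of the deposited count files carry the words reverse and union, HTSeq terms for strand and overlap handling. Reads shared by overlapping genes or near-identical copies may therefore be missing from the counts.

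Groups of 4 libraries were compared in R 4.3.3 by edgeR 4.0.16 (quasi-likelihood), on genes kept by filterByExpr (minimum count 10, minimum total 15), with TMM scaling and Benjamini-Hochberg adjustment over all genes (threshold 0.05). Stage contrasts and interactions used all 24 libraries, and treatment contrasts the 12 of their stage. Printed CPM are TMM-scaled over all 24 libraries. Each SE is the fold change over the root of its F value, and counting intervals are 95% exact. Alternatives used DESeq2 1.42.0, limma 3.58.1, other filters, the replicate number as a block and leaving out libraries. The fits were also run on simulated counts in which the libraries of a group shared a mean for each gene. Such counts hold no library that stands apart, so they do not test the results that move when a library is left out. No 2 libraries of a group agreed within sampling noise (lowest chi-square per degree of freedom 2.53).

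Symbols came from a table that covers 27000 identifiers. Of 42 cldn symbols there, 1 (*cldn15a*) had no row in the counts. Chromosomal order came from RefSeq (GRCz12tu), with no positions. The members and gene lists were chosen with earlier results of these data known. Claudins were named as the 10 with the highest CPM at each stage in DMSO, the 8 largest rises and falls between stages in DMSO, the 3 with the smallest p where none passed, and a list by role; the remaining members were added so that all 38 are accounted for. Of the other junction lists, up to 3 genes with the smallest p were eligible. *MYOG*, *nanog*, *mbpa* and *FABP2* and the libraries that stand apart were picked after their values were seen. No marker was at 0 throughout a group except *SLC2A1* (endothelium) in THC and *mbpa* (myelin) in CBD, both at 10 hpf, among the lists printed.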

Additional observations from a re-analysis of the deposited data

Results flagged for a closer look

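A sample was singled out where its gap to the nearest of its 4-library group, divided by the group's range, exceeded the 95% critical value of Dixon's test. Of 144 groups tested (those reaching 1 CPM), 21 had such a sample. Some groups, such as *cldn18* in DMSO and *cldn1* in CBD and DMSO at 10 hpf, reached 1 CPM only through the flagged library. Several flagged groups also share a library, so the 21 cannot be set against a chance rate. The explanations were not tested.

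CBD library 1 of 10 hpf stood out for *cldni* at 56.2 CPM, *cldna* at 17.1 CPM, *cldn3c* at 9.83 CPM, *cldn1* at 3.48 CPM and *cldn15b* at 2.27 CPM. DMSO library 1 of 10 hpf stood out for *cldni* at 32.4 CPM, *CLDN5* ENSDARG00000043716 at 28.2 CPM, *cldna* at 10.16 CPM and *cldn1* at 1.85 CPM, all high, and for *cldn30* at 11.8 CPM, which was low. Both libraries are the 2 with *MYOG* counts of 173 and 71.

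THC library 4 of 10 hpf, where *nanog* was 11.1 CPM, was low for *cldne* at 183 CPM and high for *cldni* at 3.3 CPM and *CLDN5* ENSDARG00000014059 at 2.08 CPM. CBD library 3 of 10 hpf, with the TMM factor of 0.563, was high for *cldng* at 11 CPM. The shallow DMSO library 4 was high for *cldn18* at 7.42 CPM, which is 1 count, and for the claudin sum at 786 CPM.

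At 96 hpf, THC library 2 was high for *cldn15la* at 61.2 CPM, DMSO library 2 low for *cldna* at 2.51 CPM, CBD library 2 low for *CLDN11* ENSDARG00000030723 at 13.1 CPM, DMSO library 3 low for the same gene at 13.3 CPM, and CBD library 1 high for the claudin sum at 888 CPM.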

How the results depend on the processing

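Across the alternatives other than leaving out 1 library, called claudins numbered 28 to 35 in THC, 22 to 33 in CBD and 24 to 31 in DMSO for 96 against 10 hpf, and 0 in every treatment and interaction contrast. Claudins lower at 96 hpf numbered 4 in CBD and 4 in DMSO both with DESeq2 size factors and with its Wald test, and *CLDN12* in CBD turned to 0.11 under both. The uncalled *cldn7b* turned to 0.59 in THC, 0.69 in CBD and 0.50 in DMSO with those size factors, all called. Leaving out 1 library at a time gave 29 to 31 calls in THC (21 to 24 higher, 7 to 8 lower), 24 to 29 in CBD (16 to 21 and 7 to 9) and 23 to 27 in DMSO (16 to 18 and 7 to 9), and 0 to 0 in all other contrasts. The replicate numbers did not pair the libraries throughout: same-numbered libraries correlated at -0.5 to 0.66. Between treatments at 96 hpf they correlated at -0.22 to 0.36, and those numbered 1 at 0.21, 0.36 and 0.24. With the replicate number as a block, calls numbered 31 in THC, 26 in CBD, 26 in DMSO and 0 elsewhere.

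Signs reversed for 10 hpf and interaction estimates that had no call. In THC against DMSO at 10 hpf, *cldni* was 0.57 with the block, 0.55 with voom, and 2.14 without DMSO library 1, where *cldna* was 0.61. In CBD against DMSO, *cldng* was -0.10 with voom and *cldn3c* -0.47 without CBD library 1, and in CBD against THC *cldni* was -0.95 without it. Without DMSO and CBD library 1, DMSO library 4 and CBD library 3 together, a choice made after seeing the data, the values were 2.13 for *cldni*, 0.57 for *cldna*, -0.14 for *cldng* and -0.48 for *cldni* in those same contrasts. The stage differences in CBD were then 2.35 for *cldna* and 2.31 for *cldn15b*, both called, against -0.24 and -0.06 with all libraries. The interactions of *cldn1* and *cldn23l* then came to -1.01 and 0.20. For *cldn1* in THC against DMSO the interaction was -1.01 also without DMSO library 1, and in CBD against THC it was 0.21 without CBD library 1. For *cldn23l* in CBD against DMSO it was 0.33 with DESeq2, 0.28 with voom and 0.19 without CBD library 1. Leaving out 1 library at a time, these estimates ran from -4 to 2.14 for *cldni* and -1.95 to 0.61 for *cldna* in THC against DMSO, -0.47 to 2.18 for *cldn3c* in CBD against DMSO and -0.95 to 4.52 for *cldni* in CBD against THC, and the interactions from -1.01 to 3.77 and -4.5 to 0.21 for *cldn1* and -2.71 to 0.19 for *cldn23l*. The cause was not tested. Depth limited the 10 hpf comparisons in DMSO library 4, where 3 counts equal 22.2 CPM.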
